A study of Arabidopsis thaliana with 5 samples.

Results

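Plants answer attack by fungi and bacteria, and several abiotic stresses, with a set of small secreted proteins called pathogenesis-related (PR) proteins. Transcripts of 5 Arabidopsis thaliana genes for such proteins are described here: AT4G33720 and PR-1-LIKE (AT2G19990), of the PR-1 family, OSM34 (AT4G11650), an osmotin, AT4G16260, of the β-1,3-glucanase family, and LCR69 (AT2G02100), a defensin. They are 5 of the 3592 genes that could be named on the array. All probe sets annotated to them were taken, 6 of the 8247 tested, with AT4G33720 holding 2 of them. The genes were picked with their values on these arrays known, among them AT4G33720, OSM34 and AT4G16260 for their level after 30 min of low oxygen and LCR69 for its mean difference between low oxygen and air. Those values are therefore given as a description and without a test.

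The samples were whole Col-0 seedlings, 14 days old, grown on agar plates at 22 °C with 16 h of light. Hypoxic seedlings had spent 30, 60 or 240 min in plastic bags flushed with 0.2% oxygen and 99.8% nitrogen, and air seedlings were taken at 0 and 240 min. No mutant or transgene was used. Each treatment and time has 1 array, 5 in all, so that a difference between 2 arrays carries no replicate error, and roots and shoots were not separated. In such bulk samples, fewer cells of a type and less RNA per cell cannot be told apart.

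PR-1 proteins are small cysteine-rich proteins of the CAP superfamily, best known through PR1, a marker of the salicylic acid response. Osmotins belong to the thaumatin-like PR-5 proteins and were first found in tobacco cells adapted to salt. β-1,3-glucanases of the PR-2 class cut β-1,3-glucans, the polymers of callose and of many fungal cell walls. Defensins are short peptides held together by disulphide bridges, many of which act against fungi.

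Values are log2 RMA values, a scale on which 1 unit is 2-fold and readings of about 4 to 5 are the floor. RMA compresses differences that start from the floor, so folds from there are likely too small. The 2 air arrays serve as a yardstick: over the 4441 probe sets that reached an array's median on at least 1 of them, their differences had an SD of 0.27. A probe set was counted as higher or lower in a single-array comparison when it differed by 1 or more and reached the array's median on at least 1 of the 2 arrays. Differences are taken between arrays for 1 probe set at a time. Readings of different probe sets are set against each other only to pick the brightest of a gene's probe sets, to say that one reads near the floor, or in the summed signal of a marker list. Probe sets ending in _s or _r were designed under relaxed rules and can match transcripts of related genes, which holds for all members except PR-1-LIKE.

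AT4G33720, OSM34 and AT4G16260 shared one pattern, a high level at 30 min of hypoxia and a level near air at 240 min, while PR-1-LIKE was high at 240 min alone and LCR69 was high at both 30 and 240 min. The plot of the 6 probe sets by array shows these 3 shapes.

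**Figure D1:**
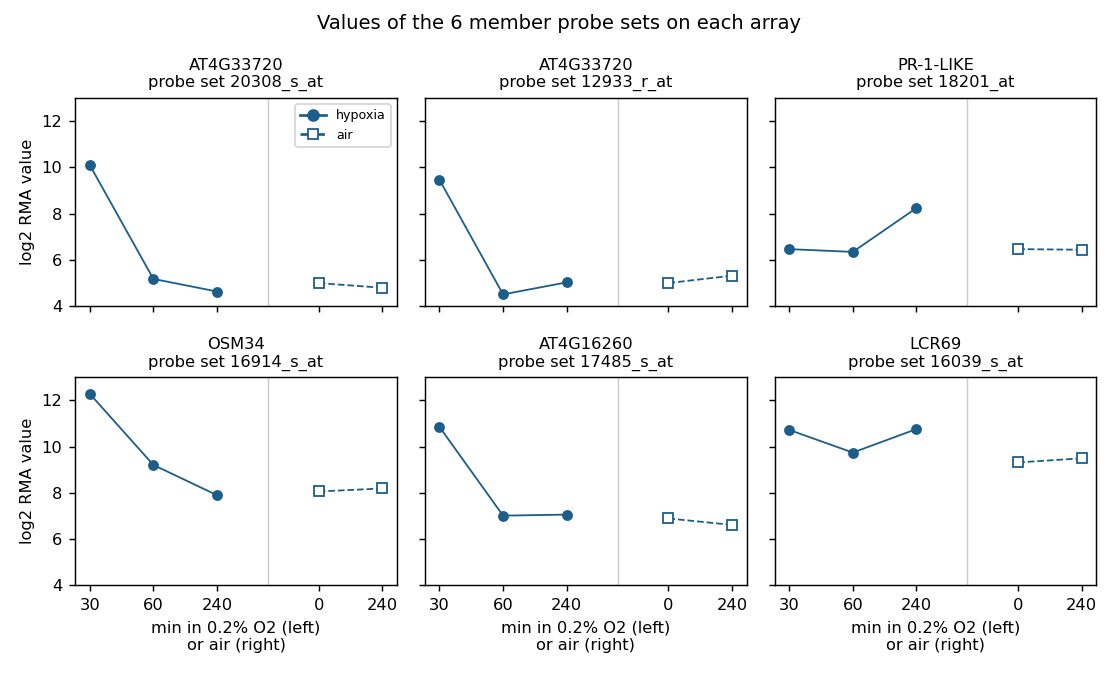
Log2 RMA values (y axis) of the 6 member probe sets on the 5 arrays, with 30, 60 and 240 min of 0.2% oxygen at the left of each panel (filled circles, solid line) and 0 and 240 min of air at the right (open squares, dashed line). Each point is 1 array and the lines only join points of a treatment. AT4G33720, OSM34 and AT4G16260 are highest at 30 min, PR-1-LIKE at 240 min of hypoxia, and LCR69 reads 10.72 and 10.76 at 30 and 240 min of hypoxia.

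AT4G33720, the PR-1-like gene, read 10.10, 5.17 and 4.63 at 30, 60 and 240 min of hypoxia, against 4.99 and 4.79 at 0 and 240 min of air, at the brighter of its probe sets (20308_s_at). The second probe set (12933_r_at) read 9.46, 4.50 and 5.02 in hypoxia, against 4.99 and 5.31 in air. At both, only the 30 min array stood above the floor, and the other 4 arrays read within 4.50 to 5.31. The 30 min array exceeded 0 min air by 5.11 and 4.47 on the log2 scale, from air readings at the floor. At 60 min the differences from 0 min air were 0.18 and −0.49, and at 240 min those from 240 min air were −0.16 and −0.29. The 2 probe sets thus gave opposite signs at 60 min, at readings near the floor. At 20308_s_at the gaps between neighbouring arrays below the 30 min value were 0.16 to 0.20, inside the SD of the air pair. At 12933_r_at these gaps were 0.29, 0.03 and 0.49, of which 0.29 and 0.49 exceeded that SD.

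OSM34, the osmotin, read 12.29, 9.21 and 7.90 at 30, 60 and 240 min of hypoxia, against 8.06 and 8.19 at 0 and 240 min of air. It was the one member that stayed above air at 60 min by 1 or more. The differences were 4.23 (18.7-fold) at 30 min and 1.15 (2.22-fold) at 60 min from 0 min air, and −0.29 at 240 min from 240 min air. In the order of levels, the 30 min array lay 3.08 above the 60 min array, which lay 1.02 above 240 min air. The remaining gaps, between 240 min air, 0 min air and 240 min of hypoxia, were 0.13 and 0.16 and did not exceed the SD of the air pair.

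AT4G16260, the β-1,3-glucanase family gene, read 10.85, 7.01 and 7.06 at 30, 60 and 240 min of hypoxia, against 6.89 and 6.61 at 0 and 240 min of air. Only the 30 min array stood apart, by 3.96 (15.6-fold) from 0 min air and by 3.79 from the next array, 240 min of hypoxia. The difference was 0.12 at 60 min. At 240 min it was 0.45 from time-matched air, where the air arrays themselves differed by −0.28. The 3 hypoxic arrays lay above the 2 air arrays, with the 60 min array 0.12 above 0 min air.

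LCR69, the defensin, read 10.72, 9.74 and 10.76 at 30, 60 and 240 min of hypoxia, against 9.31 and 9.49 at 0 and 240 min of air. The hypoxic and air arrays did not overlap, but the 60 min array exceeded 240 min air by 0.25, which is within the SD of the air pair. The differences were 1.41 (2.65-fold) at 30 min, 0.43 at 60 min and 1.26 (2.40-fold) at 240 min. The arrays at 240 and 30 min of hypoxia differed by 0.04.

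PR-1-LIKE read 6.46, 6.34 and 8.24 at 30, 60 and 240 min of hypoxia, against 6.46 and 6.43 at 0 and 240 min of air. It was higher by 1.80 (3.49-fold) at 240 min than in time-matched air, on the array whose 25S rRNA control was higher by 1.41. The other 4 arrays lay within 6.34 to 6.46, and the 30 min and 0 min values were equal to 6 decimals, as they were for 418 of the 8247 probe sets (5.07%). Of the members it was the only one high at 240 min without being high at 30 min.

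**Figure D2:**
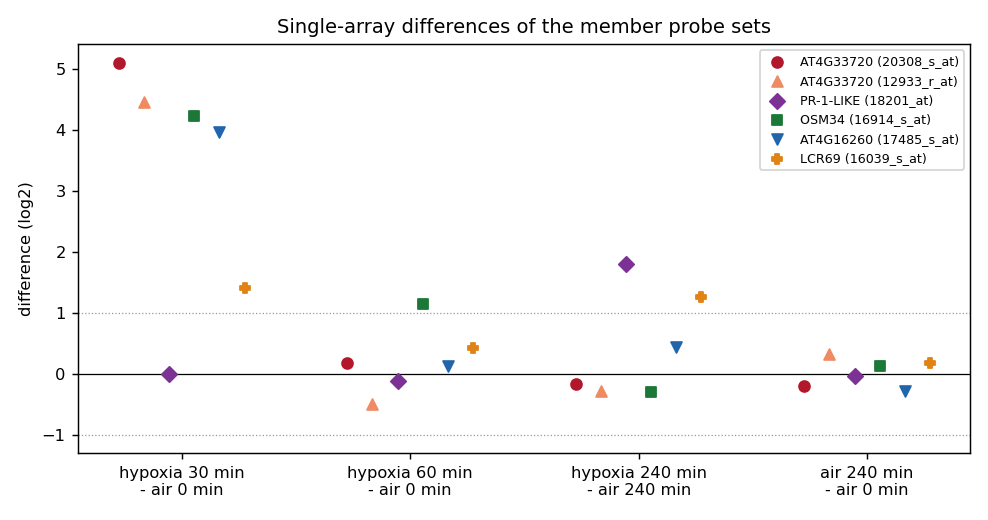
Differences in log2 RMA value (y axis) of the 6 member probe sets in the 4 single-array comparisons (x axis), with dotted lines at −1 and 1. Each symbol is 1 probe set and 1 array against 1 array, with no error. The 4 probe sets of AT4G33720, OSM34 and AT4G16260 lie between 3.96 and 5.11 at 30 min, and at 240 min PR-1-LIKE at 1.80 and LCR69 at 1.26 are above 1.

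Counted by probe set, 5 of the 6 members were higher at 30 min, where 2.87% of the 8247 tested were, a comparison that took part in choosing them and from which nothing is read. At 60 min 1 of 6 was higher, where 1.29% of all were, and at 240 min 2 of 6 were, where 5.51% were. The genes were picked with the values of all 5 arrays known, so nothing is read from these counts either. None was lower by 1 or more in any of these comparisons, where the backgrounds were 2.93%, 1.22% and 2% at 30, 60 and 240 min. Between 240 and 0 min of air none differed by 1 or more, with differences of −0.28 to 0.32, and the backgrounds were 0.182% higher and 0.121% lower. The comparisons at 30 and 60 min share the 0 min air array.

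With the 3 times taken as replicates, limma called 0 of the 8247 probe sets (0%) at an adjusted p under 0.05. At an unadjusted p under 0.05 it called 161 (1.95%). The error in this contrast includes change with time, so a gene high at only 1 time can be missed. Nothing is read from the members in this contrast, because LCR69 was chosen on it and the other genes on arrays within it. The mean of LCR69 was 10.41 ± 0.58 in hypoxia (SD, n = 3) and 9.40 ± 0.13 in air (SD, n = 2), a difference of 1.003. Its separation of all hypoxic from both air arrays was shared by 5.2% of all probe sets, and AT4G16260 had it too. The mean of OSM34 was 9.80 ± 2.25 in hypoxia and 8.12 ± 0.09 in air.

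A single array set most of these mean differences. Without the 30 min array, the mean difference was 0.01 in place of 1.74 at the brighter probe set of AT4G33720 and −0.39 in place of 1.18 at the second. For OSM34 it was 0.43 in place of 1.67, and for AT4G16260 0.28 in place of 1.56. Without the 240 min hypoxic array, PR-1-LIKE was at −0.05 in place of 0.57. LCR69 kept a mean difference of 0.83 to 1.34 whichever array was left out.

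The families of these genes were followed next, with 1 probe set per gene. Of the 22 listed PR-1 family genes 10 were measured. At 30 min 3 of them were higher and 0 lower, against 2.59% and 1.87% of the 3592 named genes. AT4G33720 is among these 3 and was picked for its level at 30 min. Without the members, 2 of 8 were higher and 0 lower. The list's median difference was 0.22, where that of all named genes was 0. AT4G07820 read 9.14 at 30 min of hypoxia, against 6.50 at 0 min of air, a difference of 2.64. Its other 3 probe sets, at 4.21 to 4.75 on the 30 min array, differed by −0.19 to 0.10. AT4G33710, the annotated gene just before AT4G33720 on chromosome 4, was higher by 1.29, and AT4G33730, just after it, differed by 0.36. The probe set of AT4G33710 is of the _s kind, so that matches to AT4G33720 transcripts are possible and were not tested. At 60 min 0 of the 10 genes passed 1 either way, against 1.03% of named genes higher and 0.39% lower. At 240 min PR-1-LIKE alone was higher by 1 or more, against 6.18% of named genes, with AT4G25780 at 0.99 (1.09 from the mean of the air pair) and AT2G19970, 2 genes from PR-1-LIKE on chromosome 2, at 0.00.

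Of 21 listed thaumatin-like genes 10 were measured, and OSM34 was the only one higher at 30 min, where 2.59% of named genes were. OSM34 was picked for its level at 30 min, and without it 0 of 9 were higher and 0 lower. The other 9 differed by −0.41 to 0.77, and the list's median was 0.11. At 60 min OSM34 was joined by AT1G75800, higher by 1.14, where 1.03% of named genes were higher by 1 or more. AT1G75800 read 6.93, 7.30 and 5.16 at 30, 60 and 240 min of hypoxia, against 6.16 and 6.41 at 0 and 240 min of air. It was the 1 gene of the list lower at 240 min, at −1.25, where 1.2% of named genes were lower.

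Of 48 listed β-1,3-glucanase family genes 12 were measured. At 30 min AT4G16260 and AT4G18340 were higher, the second by 1.505, with readings of 6.86 in hypoxia against 5.35 in air, and 0 were lower, where 2.59% of named genes were higher and 1.87% lower. The other 10 ran from −0.63 to 0.29 and the median of the list was 0.04. Without AT4G16260, which was picked for its level at 30 min, 1 of 11 was higher and 0 lower. At 240 min AT2G39640 was higher by 1.65, with 6.57 in hypoxia against 4.92 in air, where 6.18% of named genes were higher. At 60 min 0 of the 12 passed 1 either way, where 1.03% of named genes were higher and 0.39% lower.

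Of 19 listed defensins and thionins 7 were measured, with differences in both directions. At 30 min LCR69 and PDF2.1 were higher, PDF2.1 by 1.04, and THI2.2, which encodes a thionin, was lower at −1.28, where 2.59% of named genes were higher and 1.87% lower. These genes passed 1 in the same directions at 240 min, with PDF2.1 at 1.55 and THI2.2 at −1.19, where 6.18% were higher and 1.2% lower. At 60 min 0 of the 7 passed 1, where 1.03% of named genes were higher and 0.39% lower. THI2.2 read 6.70, 8.47 and 6.72 at 30, 60 and 240 min of hypoxia, against 7.98 and 7.91 at 0 and 240 min of air. The medians of the list were 0.26, 0.05 and 0.11 at 30, 60 and 240 min. LCR69 was picked for its mean difference between low oxygen and air. Without it 1 of 6 was higher and 1 lower, at 30 min and also at 240 min.

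LCR69 lies in a run of defensin genes on chromosome 2, together with PDF2.1, LCR68 and LCR72. PDF2.1 read 5.82, 5.29 and 6.47 at 30, 60 and 240 min of hypoxia, against 4.78 and 4.93 at 0 and 240 min of air, the same order of treatments as LCR69. LCR68 read 11.77, 10.57 and 11.27 in hypoxia, against 10.83 and 11.06 in air, so that its 60 min array was the lowest of the 5. LCR72 read 5.04, 5.32 and 4.997 in hypoxia, against 5.30 and 5.26 in air, all near the floor.

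**Figure D3:**
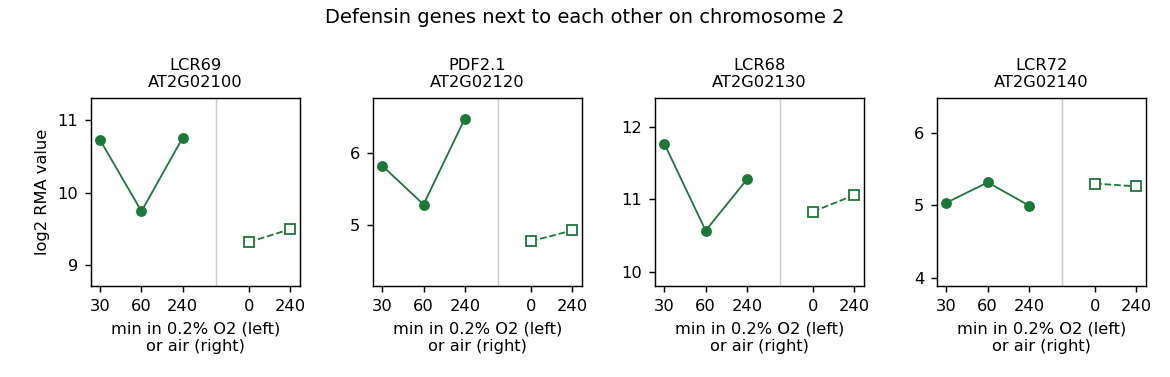
Log2 RMA values (y axis) of 4 defensin genes that lie close together on chromosome 2, on the 5 arrays, with hypoxia at the left (filled circles, min in 0.2% oxygen) and air at the right (open squares). Each panel spans the same number of log2 units around its own mean, and each point is 1 array. LCR69 and PDF2.1 have all hypoxic arrays above both air arrays, LCR68 has its lowest value of 10.57 at 60 min, and LCR72 stays between 4.997 and 5.32.

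Chitinases cut chitin of fungal cell walls and form further PR classes. Of 25 listed chitinase and hevein-like genes 16 were measured, and at 30 min 5 were higher and 0 lower, with a median of −0.03. Over all named genes 2.59% were higher and 1.87% lower, with a median of 0. AT2G43610 was higher by 3.48, CHI by 2.14, AT2G43590 by 2.04, and ChiC and AT4G01700 by 1.36 each. A second, dim probe set of AT2G43590 differed by 0.09. AT2G43610, CHI and AT2G43590 belong to the 6 loci numbered from AT2G43570 to AT2G43620, of which the other 3 differed by −0.15 to 0.08. At 60 and 240 min 0 of the 16 passed 1 either way, and AT2G43590 and AT2G43610 were at 0.94 and 0.92 at 240 min. Of named genes 1.03% were higher and 0.39% lower at 60 min, and 6.18% higher and 1.2% lower at 240 min.

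**Figure D4:**
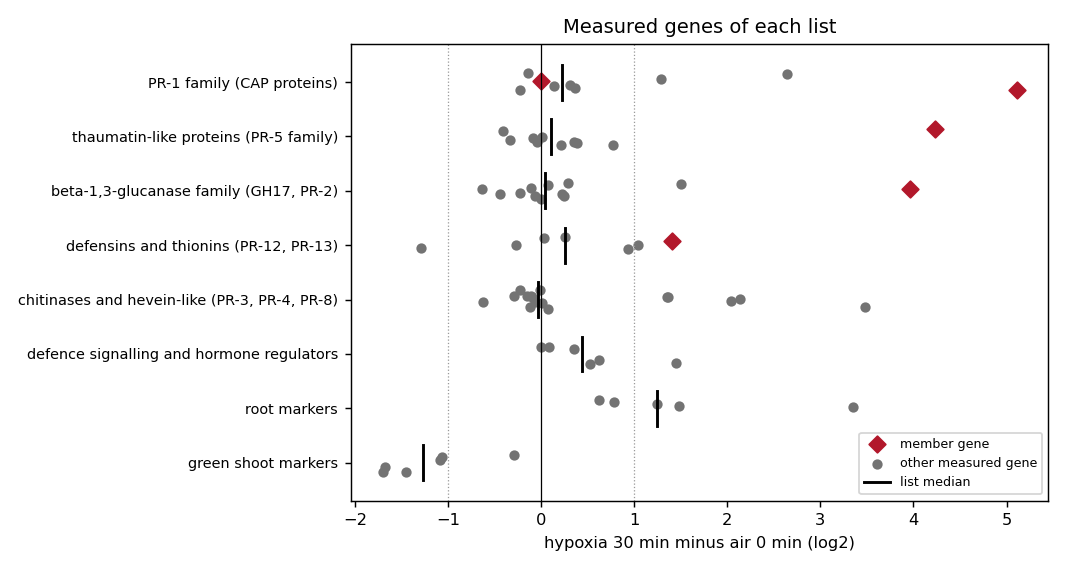
Difference between 30 min of hypoxia and 0 min of air (x axis, log2) for every measured gene of the 8 lists (rows), 1 probe set per gene. Red diamonds are member genes, grey circles other genes, black bars list medians, and dotted lines mark −1 and 1; the vertical scatter within a row has no meaning. Most genes of the defence families lie near 0, with single genes far to the right, while all 5 root markers lie above 0 and all 6 green shoot markers below 0. The 5 root markers are class III peroxidase genes, and the lists were written with earlier results of these data known.

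Of 43 listed genes that regulate defence or its hormones 6 were measured. WRKY29, a transcription factor of the response to bacterial flagellin, was higher at 30 min by 1.45, with 6.17 in hypoxia against 4.72 in air. At 30 min 2.59% of named genes were higher by 1 or more. WRKY53, a factor of stress and leaf senescence, was higher by 0.52 at 30 min and by 1.73 at 60 min, where 1.03% of named genes were higher by 1 or more. The other 4 differed by 0 to 0.63 at 30 min, among them EIN3, the central factor of ethylene signalling, at 0.36. At 240 min 0 of the 6 passed 1 either way, where 6.18% of named genes were higher and 1.2% lower. The medians of the list were 0.44, 0.14 and −0.12 at 30, 60 and 240 min.

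Likeness of pattern was measured as the Euclidean distance between log2 profiles over the 5 arrays, each centred on its own mean, so that 0 means the same profile. Among members, the distance between the 2 probe sets of AT4G33720 was 1.12, and that of AT4G16260 to OSM34 was 1.01. The 4 probe sets high at 30 min were 0.99 to 1.62 apart, and 2.898 to 5.38 from LCR69 and PR-1-LIKE. AT4G33720, OSM34 and AT4G16260 were picked for their level on the 30 min array, so nothing is read from these distances. LCR69 and PR-1-LIKE were 1.33 apart.

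Of named genes outside the set, AT5G19890, a class III peroxidase, was nearest to each of these 4 probe sets, at 0.38 from AT4G16260, 0.97 and 1.40 from AT4G33720 and 1.01 from OSM34. It read 8.31, 4.66 and 4.61 at 30, 60 and 240 min of hypoxia, against 4.63 and 4.57 at 0 and 240 min of air. AT3G01190, a second peroxidase gene, was among the 3 nearest to all 4, at 0.76 to 1.85, and AT4G07820, AT2G43610 and AT5G17820 filled the remaining places. Nearest to LCR69 were AT2G37130 at 0.34, PDF2.1 at 0.45 and AT4G28770 at 0.54. Nearest to PR-1-LIKE were AT1G10330 at 0.11, NCRK at 0.11 and AT2G14710 at 0.15, all high on the 240 min hypoxic array alone. All distances rest on the same 5 arrays, and for most of them on 1 array that stands apart.

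Markers of roots and of green tissue differed on the 30 min array, the array on which AT4G33720, OSM34 and AT4G16260 were high. Of 11 root markers 5 were measured and all 5 were higher than at 0 min of air. Their median was 1.24, with 3 at 1 or more, where 2.59% of named genes were. All 5 are class III peroxidase genes, so a change of that family and a change in the share of roots cannot be told apart. AT3G01190 was at 3.35, AT2G37130 at 1.48 and AT2G38380 at 1.24. Their summed signal on the log2 scale was 11.14, 9.92 and 10.46 at 30, 60 and 240 min of hypoxia, against 9.65 and 9.89 at 0 and 240 min of air. Of 10 green shoot markers 6 were measured and all 6 read lower at 30 min, with a median of −1.27. By 1 or more 5 of them were lower, where 1.87% of named genes were. LHCB4.3, which did not pass 1, read 4.77 at 30 min against 5.07 at 0 min of air, near the floor. Both marker lists were written with earlier results of these data known, so nothing is read from the root or the shoot count. The summed signal of the green shoot markers was 14.25, 15.42 and 15.59 in hypoxia, against 15.37 and 15.43 in air. At 60 min 1 of these 6 was still lower by 1 or more, PSAN at −1.43, where 0.39% of named genes were lower. The root hair markers EXPA7, RHS19, HRGP1 and LRX1 were not analysed here, and RMA values have no true 0. The GAPDH and ubiquitin control probe sets were also higher at 30 min, by 1.51 to 1.78, against −0.60 to 0.31 at 60 min. The actin, 25S rRNA and 5S rRNA controls differed less at 30 min, by 0.18, 0.44 and 0.08. The part of tissue make-up and of this array in the differences at 30 min was not tested. AT3G01190 and AT2G37130, which were among the nearest to members by profile, are themselves in the root list.

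On the 240 min hypoxic array, some probe sets whose numbers lie close to that of PR-1-LIKE were high too. Among the 16 probe sets within 2 numbers of it, or 33 or 66 numbers away give or take 1, 3 were higher by 1 or more, the highest by 1.81. The adjacent probe set was higher by 1.64 and the next but one by 0.97. The median of the 16 was −0.03, and 5.51% of all probe sets were higher by 1 or more. Outside this window, the probe sets at −35, −68 and −100 numbers from PR-1-LIKE were higher by 1.22, 1.65 and 2.21. Those at 44 and 46 were higher by 1.33 and 1.43, and those at 16, 21 and 58 were lower, at −1.10, −1.12 and −1.46. For the probe sets of AT4G33720, OSM34 and AT4G16260, 0 of 15 or 16 neighbours in the same window were higher by 1 or more. For LCR69 1 of 14 was, which is PDF2.1. The window was set after the values had been seen, and the part of this neighbourhood in the PR-1-LIKE value was not tested.

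**Figure D5:**
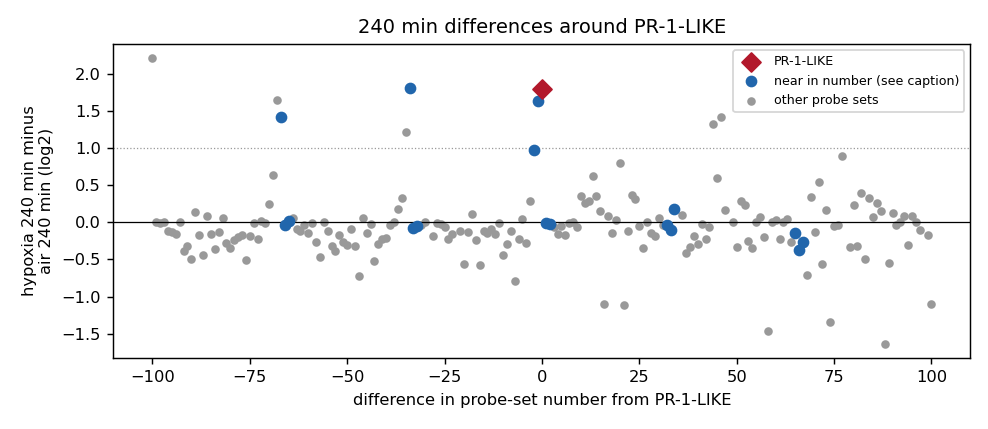
Difference between 240 min of hypoxia and 240 min of air (y axis, log2) for probe sets within 100 numbers of PR-1-LIKE (x axis, difference in probe-set number). The red diamond is PR-1-LIKE at 1.80, blue circles are the 16 probe sets within 2 numbers or 33 or 66 numbers away give or take 1, and grey circles are the rest. Of the blue circles 3 lie above the dotted line at 1, all at lower numbers than PR-1-LIKE.

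Control probe sets also stood apart on the 240 min hypoxic array, on which PR-1-LIKE, LCR69 and PDF2.1 were high. The GAPDH probe set at the 3′ end exceeded the one at the 5′ end by 0.69, −0.23 and 1.97 at 30, 60 and 240 min of hypoxia, against 0.57 and 0.55 at 0 and 240 min of air. For ubiquitin this excess was 2.15, 1.67 and 2.39 in hypoxia, against 1.96 and 1.89 in air. Both were highest at 240 min of hypoxia. Compared with 240 min air, 3′ GAPDH differed by 0.55, 5′ GAPDH by −0.87, 25S rRNA by 1.41 and 5S rRNA by 0.99. The part of RNA quality and of ribosomal RNA in the 240 min differences was not tested.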

How the data were processed

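Total RNA from whole seedlings was labelled as biotinylated cRNA and hybridised to 1-colour arrays, 1 per sample. The authors deposited log2 values of 8297 probe sets. The submitters' processing notes name RMA, with no software version given in the sources used here. Column medians were nearly equal and no further scaling was done. The number of arrays limits the precision.

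The 50 control probe sets were set apart. A platform annotation and the RefSeq gene table of TAIR10.1 named 3592 genes from 3784 probe sets with 1 gene. No build is stated for the probes, so no coordinates are given. The order of genes comes from RefSeq.

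For hypoxia against air, limma 3.58.1 was run in R 4.3.3 (lmFit and eBayes, Benjamini-Hochberg adjustment over 8247 probe sets) and tested on simulated data. The 4 single-array comparisons have no test. Samples called replicates are different times, and nothing else says how they were grown apart, so p-values measure only the spread between these samples. That spread includes change with time.

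The members, the 8 gene lists (199 genes) and the rule for named genes were chosen with earlier results of these data known. The rule takes the members, the 3 nearest named probe sets of each and every list gene past 1, or the 2 genes of a list with the largest mean difference where none passes. A gene with several probe sets enters through the brightest.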

Additional observations from a re-analysis of the deposited data

Results flagged for a closer look

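AT1G75800, a thaumatin-like gene of the same family as OSM34, stood on opposite sides of air at 2 times of hypoxia. It was higher by 1.14 at 60 min than 0 min air and lower at 240 min than 240 min air, at −1.25. Each value is 1 array against 1 array, and whether the times differ was not tested.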

How the results depend on the processing

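No paired analysis was possible because the labels give no replicate numbers and hypoxia and air share a single time. By limma, 0 probe sets passed an adjusted p under 0.05 under every alternative run. At an unadjusted p under 0.05 there were 161, with 82 among probe sets at the median level (fewer tested) and 243 under array weights. Leaving out 1 array gave 178 to 410, the highest without the 60 min array, and 381 without the 240 min hypoxic array. A threshold of 1.5 in place of 1, which counts fewer by construction, left 120 probe sets higher and 65 lower at 30 min. It left 48 higher and 28 lower after 60 min, 283 higher and 62 lower after 240 min, and in air 2 higher and 4 lower. Dropping the required level changed none of the probe-set counts at a threshold of 1, so that requirement removed nothing. With 1 array left out, the mean difference at the second probe set of AT4G33720 ran from −0.39, without the 30 min array, to 2.09. That of PR-1-LIKE ran from −0.0466, without the 240 min hypoxic array, to 0.902. The single-array differences of the 6 members moved by less than 0.27, the SD of the air pair, when both air arrays were averaged as the control or the columns were quantile-normalized again. With the averaged control, tried for the lists after seeing the data, 2 PR-1 family genes and 1 root marker were higher at 240 min and 1 defensin at 30 min. Other list counts stayed within 1.5 times.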
